A study of Mus musculus with 6 samples.

Results

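S-phase mesenchymal carcinoma cells were the cells with the most histone and DNA synthesis mRNA among the mesenchymal-like tumor cells of mouse MOC-2 head and neck squamous carcinomas. Of 14818 cell barcodes in the series, 7555 passed 7 filters that kept deep cells with few counts of immune, endothelial, epithelial, pericyte and fibroblast marker genes, and these are called the base. The 756 members were chosen by their measured values, as the top 10% of the base by the mean log-scaled level of Hist1h1b, Hist1h2ae, Hist1h3c, Pclaf, Rrm2 and Fbxo5. The other 6799 base cells are called the rest.

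The tumors were grown under the skin of male mice from 100000 injected MOC-2 cells to about 50 to 100 mm3, and were taken 24 hours after an injection into the tumor. There were 3 treated tumors, labelled as given an experimental agent, and 3 vehicle tumors, labelled DMSO; living cells were separated by dye and flow sorting, tagged per tumor and pooled for droplet RNA sequencing of transcript 3' ends. The protocol listed Copper(II) diethyldithiocarbamate, 2-C1-IB-MECA, 2'3'-c-di-AM(PS)2, 5'ppp-dsRNA/Lyovec, R848, galunisertib, epcadostat, Nw-Hydroxy-nor-L-arginine, L-NMMA, clodronate and 4-1BB ligand, without saying which of them the treated tumors received. The cells fell into 6 barcode sets, but the labels do not say which tumor a set or tag came from, so the matrix stands as 1 sample, no treated tumor was compared with a vehicle tumor, and no test was made.

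Cells copy their DNA in S phase. Before it, the origin recognition complex, Cdc6 and Cdt1 load the Mcm helicase onto origins, and in it Dbf4-dependent kinase, Cdc45 and GINS start the helicase while polymerases, the Pcna clamp and ligase build the new strands. Cyclin E and E2F factors lead the way in, ribonucleotide reductase and thymidylate synthase supply the nucleotides, and the replication-dependent histone genes, whose mRNAs end in a stem-loop in place of a poly(A) tail, supply the proteins that wrap the new DNA. Squamous carcinoma cells that lose epithelial adhesion genes and express Vim and matrix genes are called mesenchymal.

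The summed mesenchymal markers stood at nearly the same level in members and in the rest, but not every marker did. Levels are given as CPM, the counts of a gene scaled to an equal total in every group. Summed over the 7 mesenchymal markers, the level was 40859 CPM in members and 41140 CPM in the rest, and over 8 epithelial markers it was 666 CPM in members and 631 CPM in the rest, nearly all of it from Krt8 and Krt18. Most of the mesenchymal sum was S100a6, a calcium-binding protein gene, at 27260 CPM in members and 26702 CPM in the rest. Of the other mesenchymal markers, Vim was at 3481 CPM in members and 3321 CPM in the rest, while Fn1 was at 321 CPM in members and 821 CPM in the rest and Sparc at 1966 CPM in members and 3189.6 CPM in the rest, both past 1.5-fold lower in members. Macrophage and monocyte markers summed to 9.16 CPM in members and 16.9 CPM in the rest, and Pecam1 and Vwf of endothelial cells were at 0 in members. The 10 fibroblast markers summed to 362 CPM in members and 937 CPM in the rest, with ranges over the 6 sets of 136 to 726 CPM in members and 525 to 1262 CPM in the rest. Most of that sum was Dcn, the decorin gene, at 269 CPM in members and 708 CPM in the rest, while Postn, periostin, was at 6.62 CPM in members and 21.7 CPM in the rest. Several of these markers were used to choose the base, so low values of them are partly set by the choice. Xist, the RNA of the inactive X chromosome of female cells, was at 1346 CPM in members and 1035 CPM in the rest, while 4 Y-linked genes together were at 0.468 CPM in members and 1.52 CPM in the rest.

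Members were the deeper cells. Their median was 19081 transcripts counted by unique molecular identifiers (UMIs), against 10913 in the rest, and they had a median of 4510.5 detected genes against 3349 in the rest. The members summed to 14957302 UMIs and the rest to 85300284. A median of 2.34% of counts was mitochondrial in members and 2.69% in the rest. Among members, 5 (0.661%), and among the rest, 76 (1.12%), had a doublet score of at least 0.25. No barcode sequence was shared between sets. Depth moved with the score, and its part in the results was not tested; values at a fixed depth of 4000 UMIs or within 12000 to 20000 UMIs stand beside the main ones where they are given.

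The 6 score genes chose the members, so their levels are only a description of the choice. Hist1h1b encodes a linker histone (GRCm38 chr13:21779883-21780625, minus strand), and its level over the 6 sets (here and below the lowest, median and highest set value) was 224, 306 and 315 CPM in members and 2.57, 6.13 and 7.09 CPM in the rest. Hist1h2ae, a core histone H2A gene (chr13:23570517-23571220, minus strand), was at 308, 383 and 442 CPM in members and 9.26, 11.7 and 19.1 CPM in the rest in the same form. No set of the rest reached the lowest set of the members for either gene. Over all 6033 genes with at least 20 CPM in the base, the sets did not overlap for 725 genes with members above (12%) and for 694 with members below (11.5%), so a gap between the sets is not rare, and the choice of members fixes it for the score genes. Hist1h3c, a core histone H3 gene (chr13:23744973-23745602, minus strand), stood at 100.5 CPM in members and 3.92 CPM in the rest over all sets. Pclaf, which binds the Pcna clamp (chr9:65890237-65903266, plus strand), stood at 564 CPM in members and 62.9 CPM in the rest. Rrm2, the small subunit of ribonucleotide reductase (chr12:24708241-24714146, plus strand), stood at 224 CPM in members and 29.7 CPM in the rest, and Fbxo5, an inhibitor of the anaphase-promoting complex (chr10:5799160-5805600, minus strand), at 79.8 CPM in members and 5.05 CPM in the rest.

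Scores from 3 of the 6 genes show the levels of the 3 genes left out. The 756 cells chosen by the histone genes and the 756 chosen by the other genes had 507 cells in common. When the 3 genes that are not histones chose the cells, 588 of them were members, an overlap that the shared genes partly fix, and Hist1h1b, then unused in the choice, was at 256 CPM in those cells and 14.7 CPM in the remaining base cells. When the 3 histone genes chose the cells, 674 of them were members, and Pclaf was at 519 CPM in those cells and 71.2 CPM in the remaining base cells. Fbxo5 was 10.8-fold and Rrm2 5.78-fold higher in the cells that the histone genes chose. The score has no gap at its lower limit of 0.719. The 100 members just inside it had 101 CPM of Hist1h1b and 426 CPM of Pclaf, against 68.1 and 406 CPM in the 100 cells just outside it.

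Of the gene lists summed without the score genes, the histone list had the highest ratio of members to rest. The 64 genes of the replication-dependent histone list other than the 3 score genes summed to 1398 CPM in members and 326 CPM in the rest, 4.29-fold higher (exact 95% counting interval 4.21 to 4.37), and 3.59 to 5.46-fold higher within the 6 sets. Hist1h2ap, an H2A gene, was at 254, 294 and 349.98 CPM in members and 8.62, 13.4 and 18.02 CPM in the rest. Hist1h1e, a linker histone gene, was at 164, 179 and 209 CPM in members and 5.14, 11.9 and 16.8 CPM in the rest, and Hist1h4d, an H4 gene, at 99.6, 111 and 127 CPM in members and 6.94, 8.65 and 10.5 CPM in the rest. These 3 genes had no overlap between the sets of members and of the rest. Hist1h4i, another H4 gene, was less separated, with 154 CPM in members and 44.3 CPM in the rest. Of 67 histone genes in the list, 41 had at least 100 UMIs over the base. Among the 41, 35 were past 1.5-fold higher in members, 12 of these past 20-fold, 2 were past 1.5-fold lower and 4 lay between. The 3 score genes are among the 41, the 35 and the 12, and the choice of members fixes their ratios. A rare gene also reaches 100 UMIs mainly through the cells where it is high. Many of these genes code for nearly identical proteins, so a read can match several copies, and a single histone gene's value is less certain than the sum.

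The 6 of these genes that were not past 1.5-fold higher were Hist1h2bc, Hist2h3c1, Hist3h2a, Hist2h3c2, Hist2h2be and Hist1h1c. Hist1h2bc, an H2B gene, was at 39.05, 70.9 and 77.4 CPM in members and 120.1, 136 and 167 CPM in the rest, 0.462-fold, with every set of the members below every set of the rest, and no stem-loop was matched for it in the annotation. Hist1h1c, a linker histone gene, was at 21.2, 60.1 and 75.8 CPM in members and 31.9, 42.2 and 50.1 CPM in the rest, and its sets overlapped. Hist2h3c1, an H3 gene, was 0.561-fold in members over the rest, Hist3h2a 1.14-fold, Hist2h3c2 1.19-fold and Hist2h2be 1.34-fold.

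The stem-loop that the histone mRNAs share is printed here for 7 of the histone genes named above. It is shown because the assay primes on poly(A) while the processed histone mRNA ends just after this loop. How far this affects the capture of each histone mRNA, and so its ratio, was not tested. The annotation also held it for Hist2h3c1, Hist3h2a and Hist2h3c2, which are not printed. The sequences are from GENCODE transcripts on GRCm38, written 5' to 3' on the gene's strand, and the capitals are the arms of the stem, 6 base pairs, around a loop of 4 bases. The coordinates are those of the arms and the loop.
Hist1h2ae (chr13:23570668-23570683, minus strand): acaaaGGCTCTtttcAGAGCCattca
Hist1h3c (chr13:23745047-23745062, minus strand): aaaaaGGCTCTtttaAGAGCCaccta
Hist1h2ap (chr13:21833029-21833044, minus strand): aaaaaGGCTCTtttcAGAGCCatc
Hist1h1e (chr13:23621782-23621797, minus strand): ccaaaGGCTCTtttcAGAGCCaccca
Hist1h4d (chr13:23581950-23581965, plus strand): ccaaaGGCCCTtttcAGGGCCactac
Hist1h4i (chr13:22040966-22040981, minus strand): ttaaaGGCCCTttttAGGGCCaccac
Hist1h1c (chr13:23739512-23739527, plus strand): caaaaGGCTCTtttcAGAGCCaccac
The annotated transcript ran on for 3 bases after the loop in Hist1h2ap, 74 in Hist1h3c, 151 in Hist1h2ae, 330 in Hist1h4i, 770 in Hist1h4d, 840 in Hist1h1c and 1153 in Hist1h1e. A perfect stem of this form was found in 44 of the 67 listed genes, with the loop tttc in 35, ttta in 6 and tttt in 3. Genes with the same loop, such as Hist1h2ap at 22.1-fold and Hist1h1c at 1.47-fold, differed widely between members and rest.

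Across the whole table, 6033 genes had at least 20 CPM over the base. Of these, 373 (6.18%) were at least 1.5-fold higher in members than in the rest and 533 (8.83%) at least 1.5-fold lower, and the median over all 6033 genes was 0.958-fold. Of the higher genes, 353 were higher in each of the 6 sets, and of the lower genes, 473 were lower in each. The same contrast chose the members, so these counts and the list counts that follow describe the chosen cells and carry no test. The 20 CPM limit was over the base, where the rest holds most of the UMIs. It keeps genes low in members more readily than genes high only in members. The median of 0.958 is the value that each list's median can be set beside.

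**Figure D1:**
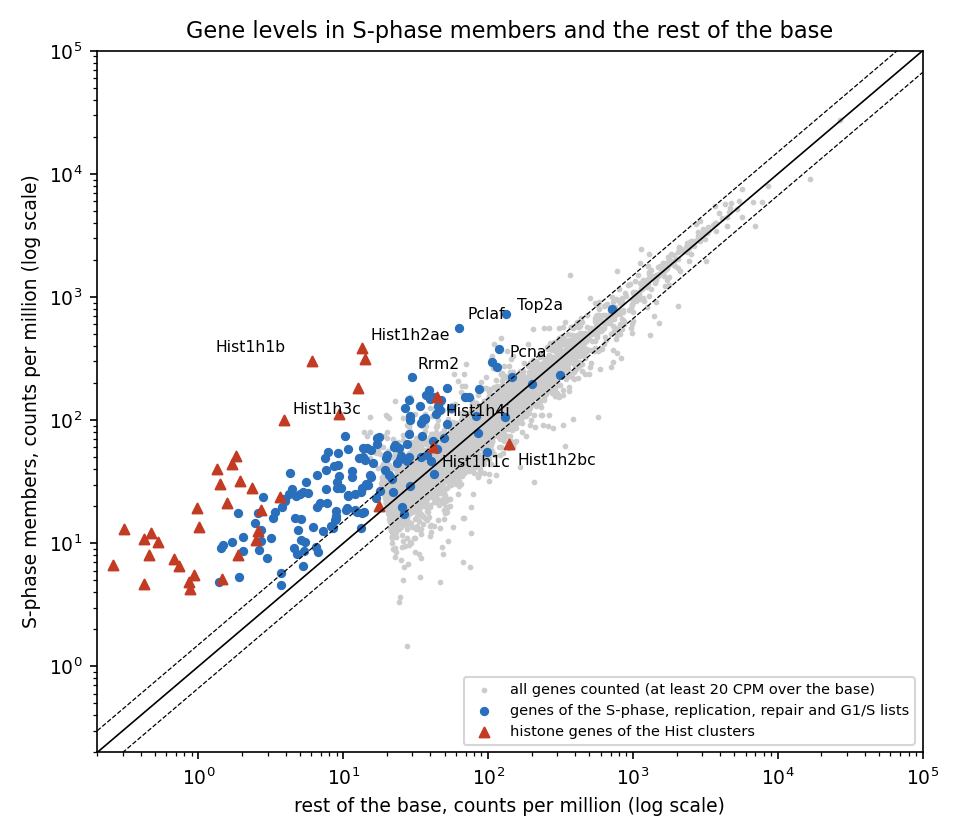
Level in S-phase members (vertical axis, CPM, log scale) against the level in the rest of the base (horizontal axis, CPM, log scale), 1 point a gene; grey points are all genes counted, and blue points (S-phase, replication, repair and G1/S lists) and red triangles (Hist cluster genes) include genes below 20 CPM, with the solid line equality and the dashed lines 1.5-fold. Hist1h1b stands highest above the line at 303 against 6.04 CPM, while Hist1h2bc lies below it at 64.2 against 139 CPM.

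Genes of S phase were higher in members throughout. Leaving out the score genes, a published list of S genes summed to 3545 CPM in members and 1104 CPM in the rest, 3.21-fold higher, and 2.53 to 3.60-fold higher within the sets. All 22 of its counted genes were past 1.5-fold higher, with a median of 2.98-fold. At a depth of 4000 UMIs in every cell, with members scored and summed again at that depth, the summed level was 3.53-fold higher, and among cells of 12000 to 20000 UMIs it was 3.20-fold higher.

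**Figure D2:**
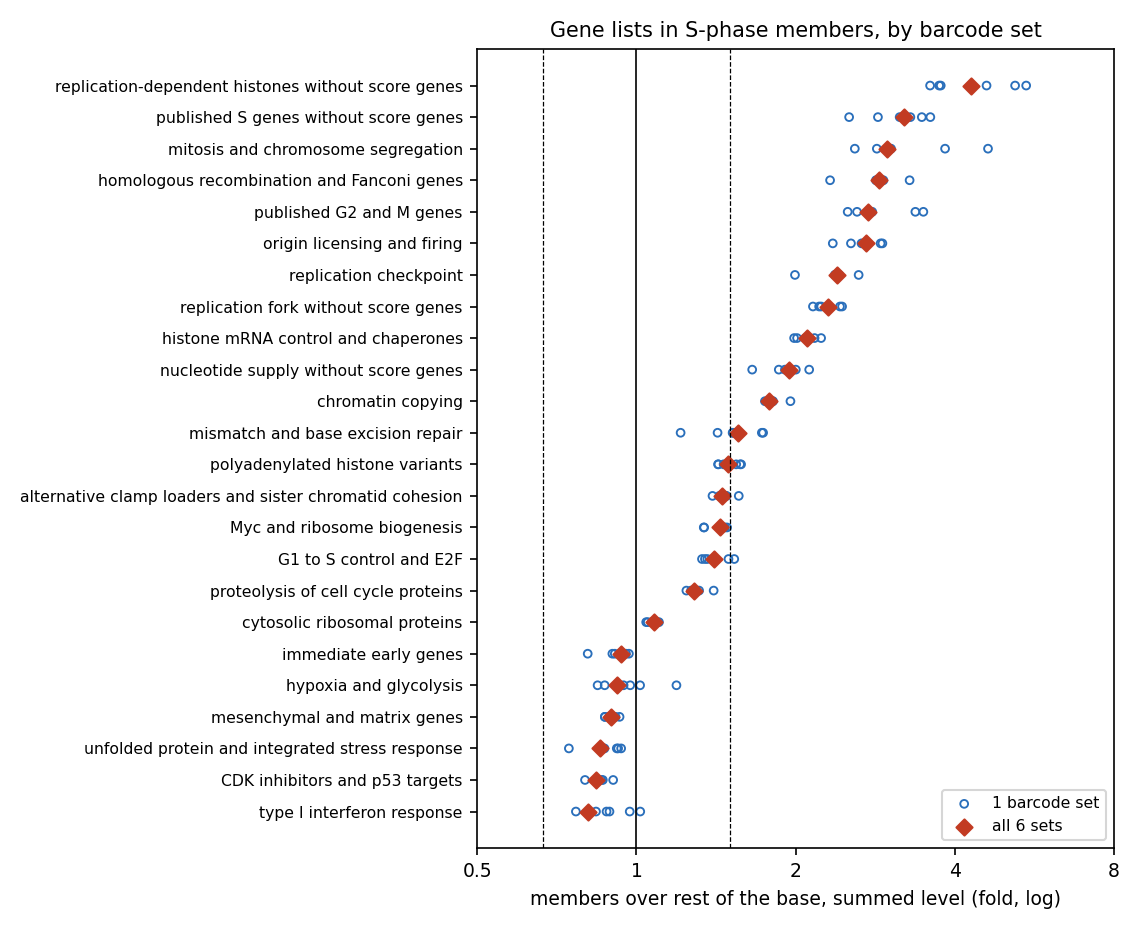
Summed level of each gene list in S-phase members over the rest of the base (horizontal axis, fold, log scale), with open circles for each of the 6 barcode sets and diamonds for all sets together; the solid line is equality and the dashed lines are 1.5-fold. Histones outside the score stood at 4.29-fold and published S genes at 3.21-fold, while ribosomal protein genes stood at 1.08-fold and interferon genes at 0.809-fold.

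Origin licensing and firing genes summed to 1918 CPM in members and 706 CPM in the rest, and 15 of 17 counted genes were past 1.5-fold higher (median 2.71-fold), none lower. All 6 subunits of the Mcm2-7 helicase were among them. Mcm5 was at 72.3 CPM in members and 17.7 CPM in the rest, 4.08-fold, and Mcm2, the least separated of them, at 77.4 CPM in members and 28.5 CPM in the rest, 2.71-fold. Mcm7 had set values of 133, 151 and 171 CPM in members and 40.6, 42.3 and 48.5 CPM in the rest, with no overlap. Gmnn, the geminin gene, whose protein holds Cdt1 back from loading more helicase, was at 96.9, 140.2 and 171 CPM in members and 27.1, 28.97 and 33.1 CPM in the rest. Cdc45, which joins the helicase when an origin fires, was at 63.8 CPM in members and 17.1 CPM in the rest. Orc6, a subunit of the origin recognition complex, was at 298 CPM in members and 107 CPM in the rest, and Dbf4, the activator of the firing kinase, at 126 CPM in members and 55.6 CPM in the rest. Orc4, another subunit of that complex, was at 36.7 CPM in members and 42.5 CPM in the rest, and Mcmbp, an Mcm-binding protein, at 51.6 CPM in members and 38.1 CPM in the rest, both within 1.5-fold. Below the 20 CPM limit, Cdc6, the helicase loader, was at 43.1 CPM in members and 9.24 CPM in the rest, and Mcm10, which helps start the helicase, at 26.1 CPM in members and 5.24 CPM in the rest.

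Replication fork genes without the score genes summed to 3084 CPM in members and 1337 CPM in the rest, with 15 of 20 counted genes past 1.5-fold higher and none lower (median 2.63-fold). Pcna, the sliding clamp, had set values of 318, 370.3 and 427 CPM in members and 114, 121 and 139 CPM in the rest, 3.17-fold over all sets. All 5 subunits of the clamp loader were past 1.5-fold, from Rfc1 at 74.7 CPM in members and 34.9 CPM in the rest to Rfc4 at 59.6 CPM in members and 13.8 CPM in the rest. Lig1, the ligase that joins Okazaki fragments, was at 125 CPM in members and 26.5 CPM in the rest, 4.72-fold, and Fen1, the nuclease that trims them, at 71.1 CPM in members and 17.1 CPM in the rest, 4.16-fold. Rpa1 and Rpa3 of the single-strand binding complex were at 62.9 CPM in members and 22.8 CPM in the rest, and at 154 CPM in members and 69.4 CPM in the rest. The topoisomerase genes went apart. Top2a, which separates the copied strands, was at 671, 737 and 773 CPM in members and 76.6, 136 and 144 CPM in the rest, while Top1, which relaxes DNA ahead of a fork and behind RNA polymerase, was at 219.8, 234 and 269.6 CPM in members and 291, 321 and 327 CPM in the rest, lower in every set of the members but within 1.5-fold. Among genes below the limit, Prim1, the primase, was at 58.2 CPM in members and 10.7 CPM in the rest, Pole, a leading-strand polymerase, at 25.3 CPM in members and 4.24 CPM in the rest, and Dscc1, of the clamp loader for cohesion, at 23.7 CPM in members and 2.80 CPM in the rest.

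The list of alternative clamp loaders and sister chromatid cohesion was less separated, at 1.45-fold for the summed level, with 2 of 10 counted genes past the limit. These were the cohesin core genes Smc3, at 247 CPM in members and 147 CPM in the rest, and Smc1a, at 138 CPM in members and 82.5 CPM in the rest. Rad21, the cohesin subunit cut at anaphase, was at 159.7 CPM in members and 115 CPM in the rest.

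Nucleotide supply genes other than Rrm2 summed to 3336 CPM in members and 1716 CPM in the rest, with 12 of 19 counted genes past 1.5-fold higher and none lower (median 1.82-fold). The thymidine and deoxynucleotide genes led. Tk1, thymidine kinase, was at 142 CPM in members and 22.6 CPM in the rest, 6.29-fold, and Tyms, thymidylate synthase, at 130.3 CPM in members and 34.1 CPM in the rest, 3.82-fold. Rrm1, the large subunit that pairs with Rrm2, had set values of 137, 149 and 167 CPM in members and 32.02, 39.8 and 63.96 CPM in the rest. Dut, which clears dUTP, was at 549 CPM in members and 205 CPM in the rest. Paics, an enzyme of purine synthesis, was at 179 CPM in members and 139 CPM in the rest, and Nme1, a nucleoside diphosphate kinase, at 716 CPM in members and 483 CPM in the rest, both within 1.5-fold. Samhd1, which breaks deoxynucleotides down, was at 55.4 CPM in members and 64.6 CPM in the rest.

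Genes that handle histone mRNA and histones were higher too, at 2.10-fold for the sum with 7 of 11 counted genes past 1.5-fold. Slbp, which binds the stem-loop shown above, had set values of 154, 172 and 194 CPM in members and 80.6, 88.00 and 101 CPM in the rest. Nasp, a histone H1 and H3 chaperone, was at 273 CPM in members and 115 CPM in the rest, Hat1, which acetylates new H4, at 125 CPM in members and 39.5 CPM in the rest, and Eri1, the nuclease that trims and degrades histone mRNA, at 118 CPM in members and 55.6 CPM in the rest. Asf1a, an H3-H4 chaperone, and Ubn1, which deposits the variant H3.3, were within 1.5-fold, at 40.9 CPM in members and 30.02 CPM in the rest, and at 35.6 CPM in members and 36.6 CPM in the rest.

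Polyadenylated histone variant genes were split. H2afz was at 2431 CPM in members and 1133 CPM in the rest, H2afx, whose protein is phosphorylated at DNA breaks, at 126 CPM in members and 43.1 CPM in the rest, and the linker variants H1f0 and H1fx at 147 CPM in members and 70.5 CPM in the rest, and at 50.1 CPM in members and 21.6 CPM in the rest. H3f3a, which encodes H3.3, was at 1024, 1054 and 1094 CPM in members and 1022, 1069 and 1107 CPM in the rest, so the 2 groups of sets overlapped, and 6 of 10 counted variants stayed within 1.5-fold. Among chromatin copying genes, 11 of 17 were past 1.5-fold higher and none lower. They included Dnmt1, which copies DNA methylation, at 145 CPM in members and 47.01 CPM in the rest, Uhrf1, which brings it to new DNA, at 101 CPM in members and 28.97 CPM in the rest, and Ezh2, which methylates H3, at 188 CPM in members and 66.1 CPM in the rest. Hmga2, an architectural protein of tumor chromatin, was at 1208 CPM in members and 1183 CPM in the rest.

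Repair and checkpoint genes that work at forks were higher in members. The replication checkpoint list summed to 2.39-fold (3 of 4 counted genes past the limit), the homologous recombination and Fanconi list to 2.87-fold (4 of 5), and the mismatch and base excision list to 1.56-fold (2 of 4). Tipin, of the fork protection complex, was at 146 CPM in members and 47.3 CPM in the rest, and Topbp1, which activates the kinase Atr, at 121 CPM in members and 46.3 CPM in the rest. Atr itself, below the 20 CPM limit, was at 15.5 CPM in members and 8.82 CPM in the rest, and Clspn, the claspin gene, which carries its signal to Chek1, at 73.9 CPM in members and 10.2 CPM in the rest, 7.22-fold. Brca1 and Brca2, which act in homologous recombination, were 5.87-fold and 6.61-fold higher in members, at 54.2 and 49.3 CPM in members. Usp1 and Ube2t, which remove and attach ubiquitin in the Fanconi pathway, were at 130.5 CPM in members and 45.3 CPM in the rest, and at 59.6 CPM in members and 14.5 CPM in the rest. Fance of the same pathway was at 13.4 CPM in members and 13.4 CPM in the rest. Trp53bp1, which favours end joining over recombination, was at 19.8 CPM in members and 25.6 CPM in the rest.

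The G1 to S control list was mixed. Its sum was 1.40-fold higher, with 8 of 16 counted genes past 1.5-fold higher and 2 lower. Ccna2, the cyclin of S and G2 phases, was at 143, 159 and 236 CPM in members and 25.3, 36.5 and 45.5 CPM in the rest, with no overlap. Ccne1 and Ccne2, the cyclins that start S phase, lay below the 20 CPM limit and were 5.19-fold and 5.44-fold higher, at 39.6 and 35.7 CPM in members. E2f1, an activator, was at 39.6 CPM in members and 19.5 CPM in the rest, and E2f8, a repressor of the same targets, at 94.2 CPM in members and 34.3 CPM in the rest. Cdk4 was at 224 CPM in members and 146 CPM in the rest, while its partner cyclin Ccnd1 was at 794 CPM in members and 718 CPM in the rest, Cdk6 at 196 CPM in members and 200.01 CPM in the rest, and Ccnd2, another D-type cyclin, at 55.2 CPM in members and 98.1 CPM in the rest. Rbl2, the p130 pocket protein of resting cells, was at 17.2 CPM in members and 26.1 CPM in the rest.

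Inhibitors of the cycle and p53 targets summed to 1608 CPM in members and 1914 CPM in the rest, with 1 of 17 counted genes past 1.5-fold higher and 4 lower (median 0.839-fold). The gene that was higher was Cdkn2d, the p19 inhibitor of Cdk4 and Cdk6, at 93.3, 98.3 and 154 CPM in members and 40.05, 43.8 and 51.9 CPM in the rest, with no overlap. Its relative Cdkn2b, the p15 inhibitor, was at 21.2, 32.3 and 54.9 CPM in members and 52.4, 65.7 and 72.3 CPM in the rest, and the highest set of the members lay within the range of the rest. Gadd45a, a stress gene that slows the cycle, was at 23.7 CPM in members and 50.5 CPM in the rest. Cdkn2a, of the Ink4a and Arf products, was at 559.9 CPM in members and 767 CPM in the rest, and Cdkn1a, the p21 inhibitor, at 113 CPM in members and 90.1 CPM in the rest.

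Members also carried more G2 and mitosis mRNA than the rest. The published G2 and M genes summed to 8678 CPM in members and 3166 CPM in the rest, 2.74-fold, with 34 of 39 counted genes past 1.5-fold higher and none lower (median 2.64-fold). Within the sets it was 2.51 to 3.49-fold. The rest was not a single population, and 59.2% of the base had a score of 0. A comparison group of 756 cells, the top 10% of the base by the mitosis genes Ube2c, Cdc20, Plk1, Ccnb1, Cenpa and Hmmr, shared 170 cells with the members, which is 22.5% of each group. Several lists were close in both groups. Inhibitors of the cycle and p53 targets summed to 1577 CPM in the mitotic cells and 1917 CPM in the other base cells. In that order, chromatin copying genes were at 7040 and 4168 CPM and G1 to S control genes at 2355 and 1778 CPM. Histone variants were at 8623.5 and 5955.6 CPM, and ribosome biogenesis and Myc targets at 10950 and 8324 CPM. S genes outside the score were not close, at 1794.5 CPM against 3545 CPM in members. Against the 586 mitotic cells that were not members, the 586 members that were not mitotic had 423 against 113 CPM of Pcna, 320.4 against 122 CPM of Orc6, 169.8 against 56.99 CPM of Mcm7 and 194 against 80.4 CPM of Slbp. They had 170.2 against 29.5 CPM of Hist1h1e. In the other direction they had 379.8 against 522 CPM of Birc5, survivin of the chromosomal passenger complex, and 192 against 365 CPM of Prc1, which bundles spindle microtubules. Top2a was close in both, at 668 against 636 CPM, as was H2afz, at 2358 against 2348 CPM. The 6213 cells in neither group had 120.3 CPM of Pcna and 87.1 CPM of Slbp, close to the mitotic cells that were not members.

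Along the score the lists did not move together. From the 4470 base cells with a score of 0, through 4 parts of 582 or 583 cells with rising score, to the members, the published S genes without the score genes summed to 643, 984, 1220.4, 1828, 2659 and 3545 CPM. The histone genes without the score genes summed to 304, 272, 325, 327, 485 and 1398 CPM over the same steps, so they were nearly level up to the third of the 4 parts and highest in the members. The G2 and M genes summed to 1352, 2382, 3887, 7114, 8454 and 8678 CPM. The mitotic comparison genes were highest in parts 3 and 4, at 1146 and 1140 CPM, and lower in the members, at 758 CPM. Ccnb1, the main mitotic cyclin, was at 4.86, 22.6, 48.96, 111, 118 and 92.7 CPM, and Cdc6 at 2.19, 6.72, 8.27, 19.1, 36.7 and 43.1 CPM. Median depth over these steps was 9585.5, 16178, 10106, 14272, 16880 and 19081 UMIs and did not rise at every step.

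**Figure D3:**
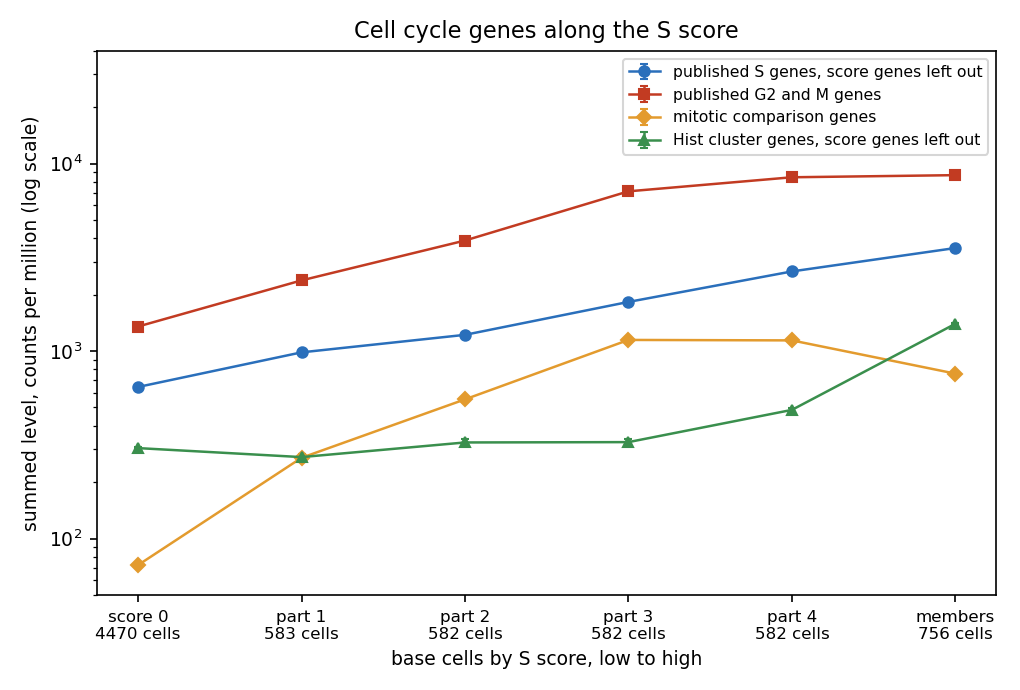
Summed level of 4 gene lists (vertical axis, CPM, log scale, bars for exact 95% Poisson intervals) in base cells with a score of 0, in 4 parts of the scoring cells and in the members (horizontal axis, low to high score). Histone genes outside the score stay between 272 and 485 CPM until they reach 1398 CPM in the members, where the mitotic genes are lower than in parts 3 and 4.

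The members were not uniform. Cut into 3 parts of 252 cells by 26 other G2 and M genes, they differed in genes known from the start of S phase and from G2 and mitosis, among others. The order rests on G2 and M genes, so the levels of other such genes along it are close to the choice. Cdc6 was at 73.2, 39.4 and 22.2 CPM in parts 1, 2 and 3, and part 3 had 0.304-fold the level of part 1 (counting interval 0.244 to 0.376). Ccne2 was at 51.1, 41.4 and 17.6 CPM, Cdt1, which is destroyed once S phase starts, at 93.3, 62.7 and 41.8 CPM, and E2f1 at 52.5, 45.4 and 23.3 CPM. Hells, a chromatin remodeller of the S gene list, was at 246, 186 and 123 CPM, Pcna at 441, 420.1 and 286 CPM and Mcm7 at 176, 170.1 and 122 CPM. Genes outside the cycle were lower in part 3 as well, with Ccl8, a chemokine gene, at 0.281-fold the level of part 1 (counting interval 0.152 to 0.497), Dio2, a deiodinase, at 4.61, 4.75 and 1.87 CPM and Ifit2, an interferon gene, at 44.4, 29.7 and 20.9 CPM. Rrm2 and Slbp were also lowest in part 3, at 263, 242 and 175 CPM for Rrm2 and 202, 194 and 143 CPM for Slbp.

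Pclaf and 3 histone genes were not lowest in part 3. Pclaf was at 541, 585 and 560.3 CPM in parts 1, 2 and 3, Hist1h1b at 261, 341 and 301 CPM, Hist1h2ae at 339, 394 and 411 CPM and Hist1h1e at 137, 193 and 211 CPM. All but Hist1h1e are score genes, and every member had to reach the score limit, so their levels are partly set by the choice. The score genes summed to 1572 CPM in part 1 and 1631 CPM in part 3. Of the other score genes, Hist1h3c was 1.36-fold, Fbxo5 0.854-fold and Rrm2 0.664-fold in part 3 over part 1. Genes of late chromatin and of mitosis were highest in part 3. H2afx was at 82.2, 114 and 172 CPM, H1f0 at 87.3, 119.8 and 223 CPM, Ccna2 at 112, 148 and 209 CPM and Top2a at 467, 692 and 986 CPM. Cdkn2d was at 49.3, 87.3 and 156 CPM, 3.17-fold in part 3 over part 1, while Cdkn2b was at 30.9, 32.5 and 43.3 CPM. Ube2c, the ubiquitin-conjugating enzyme of the anaphase-promoting complex, was at 129, 247 and 579 CPM, 4.50-fold. Part 1 had a median of 16263 UMIs, part 2 of 19422 and part 3 of 20579, and each part drew on all 6 sets.

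**Figure D4:**
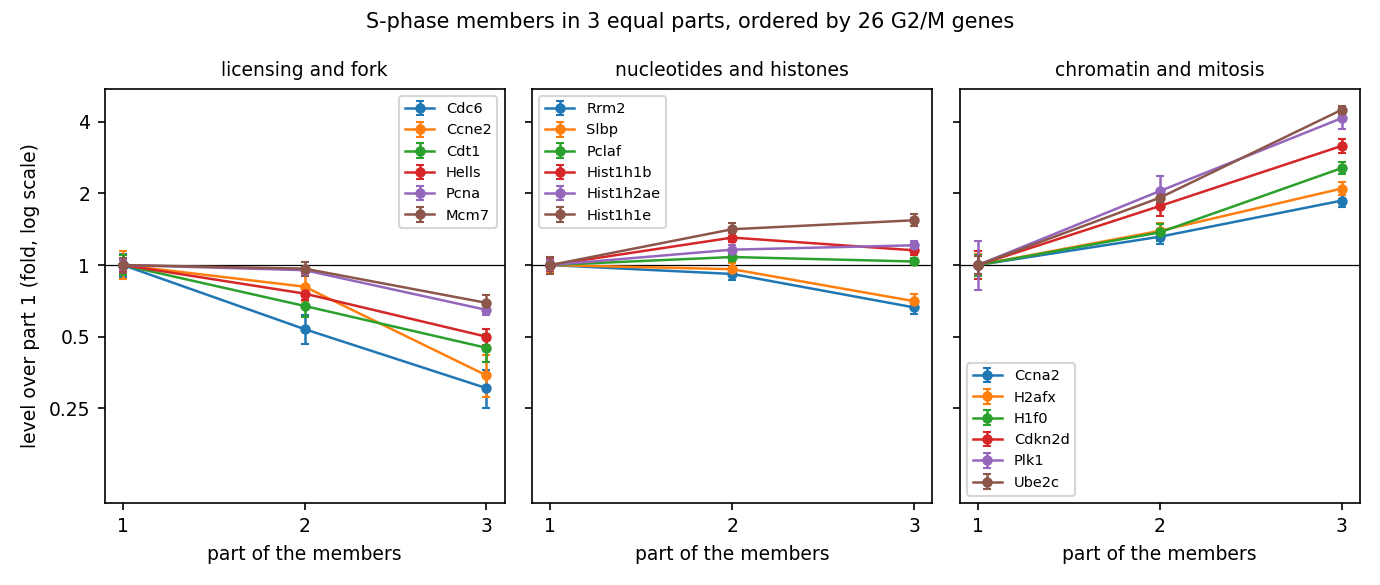
Level of 18 genes in the 3 parts of the members over the level in part 1 (vertical axis, fold, log scale, bars for exact 95% Poisson intervals of each part), with parts ordered by 26 G2 and M genes that are not plotted. Cdc6 reaches 0.304-fold and Ube2c 4.50-fold in part 3, while Pclaf, a score gene whose level the choice partly sets, stays at 1.03-fold.

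Promoters of the genes that were higher in members carried E2F, CCAAT and CHR words more often than promoters of other counted genes. RefSeq promoter windows (GRCm38.p6, 250 bases before to 50 after the start, 1 window a gene) were matched for 299 of the 373 higher genes, 404 of the 533 lower genes and 4161 of the 5127 others. The E2F words TTTCCCGC, TTTCGCGC, TTTGCCGC and TTTGGCGC were in 41 of 299 windows of higher genes (13.7%), 1.73% of lower genes, 4.13% of the others and 2.32% of all 27025 promoters. CCAAT was in 59.5% of higher genes, 36.1% of lower genes, 37.2% of the others and 37.9% of all promoters. The CHR words TTTGAA and TTCGAA, known from promoters of G2 and M genes, were in 27.4% of higher genes, 12.4% of lower genes, 11.9% of the others and 19.4% of all promoters. The TATA word TATAAA was in 7.02% of higher genes, 13.1% of lower genes, 6.71% of the others and 14.2% of all promoters. The H1 box AAACACA of linker histone genes was in 6.35% of higher genes, 6.68% of lower genes, 3.68% of the others and 7.14% of all promoters. The octamer ATTTGCAT was in 0.334% of higher genes, 2.97% of lower genes, 0.985% of the others and 1.75% of all promoters. All words were searched on both strands. Words of different motifs can overlap, and a match of letters is a description of the window and not of a bound site.

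Within the gene lists, E2F words were in 11 of 31 matched S genes and 2 of 47 matched G2 and M genes, and CHR words in 5 of 31 S genes and 35 of 47 G2 and M genes. The windows printed here are those of Cdc6 and Mcm7, lowest in part 3 of the members, of Pclaf, Hist1h1b and Hist1h1e, which were not, and of Top2a and Ube2c, highest in part 3. Pclaf and Hist1h1b are score genes, so their levels over the parts are partly set by the choice. All are RefSeq sequences on GRCm38.p6, written 5' to 3' on the gene's strand, with every word of the searched motifs in capitals. Positions are counted from the RefSeq start to the first base of the word on the gene's strand. In GENCODE, the Cdc6 gene starts at chr11:98907801 and the Mcm7 gene at chr5:138172422, so both of these windows lie inside the annotated gene.
Cdc6 (chr11:98907901-98908200, plus strand): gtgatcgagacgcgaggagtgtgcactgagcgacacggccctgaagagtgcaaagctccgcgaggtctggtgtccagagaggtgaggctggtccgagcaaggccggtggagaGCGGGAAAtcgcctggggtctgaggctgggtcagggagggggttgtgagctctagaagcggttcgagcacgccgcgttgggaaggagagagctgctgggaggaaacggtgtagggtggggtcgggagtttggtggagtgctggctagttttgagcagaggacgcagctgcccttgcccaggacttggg
Mcm7 (chr5:138171834-138172133, minus strand): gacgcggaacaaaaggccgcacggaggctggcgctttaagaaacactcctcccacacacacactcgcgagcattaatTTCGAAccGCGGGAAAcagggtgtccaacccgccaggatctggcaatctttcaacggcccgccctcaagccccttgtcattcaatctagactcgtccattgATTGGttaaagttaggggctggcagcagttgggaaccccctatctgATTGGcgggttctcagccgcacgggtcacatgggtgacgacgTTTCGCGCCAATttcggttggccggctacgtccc
Pclaf (chr9:65890073-65890372, plus strand): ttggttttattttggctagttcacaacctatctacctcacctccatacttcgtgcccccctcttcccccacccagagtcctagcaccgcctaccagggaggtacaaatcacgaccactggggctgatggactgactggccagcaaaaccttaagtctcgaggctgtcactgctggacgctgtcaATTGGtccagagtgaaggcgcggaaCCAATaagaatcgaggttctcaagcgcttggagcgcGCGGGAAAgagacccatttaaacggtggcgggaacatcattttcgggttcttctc
Hist1h1b (chr13:21780576-21780875, minus strand): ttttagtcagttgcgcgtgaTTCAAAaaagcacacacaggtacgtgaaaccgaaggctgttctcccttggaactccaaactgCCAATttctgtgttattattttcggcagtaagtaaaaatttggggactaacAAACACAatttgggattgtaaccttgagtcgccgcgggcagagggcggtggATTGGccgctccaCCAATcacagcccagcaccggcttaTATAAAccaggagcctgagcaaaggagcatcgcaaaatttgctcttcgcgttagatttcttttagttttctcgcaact
Hist1h1e (chr13:23622509-23622808, minus strand): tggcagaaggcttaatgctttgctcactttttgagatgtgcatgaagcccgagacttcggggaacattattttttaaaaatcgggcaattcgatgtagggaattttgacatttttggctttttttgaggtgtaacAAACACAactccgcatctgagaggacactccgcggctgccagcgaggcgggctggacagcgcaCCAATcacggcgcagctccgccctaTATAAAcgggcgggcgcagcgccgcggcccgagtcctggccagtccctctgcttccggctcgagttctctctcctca
Top2a (chr11:99024140-99024439, minus strand): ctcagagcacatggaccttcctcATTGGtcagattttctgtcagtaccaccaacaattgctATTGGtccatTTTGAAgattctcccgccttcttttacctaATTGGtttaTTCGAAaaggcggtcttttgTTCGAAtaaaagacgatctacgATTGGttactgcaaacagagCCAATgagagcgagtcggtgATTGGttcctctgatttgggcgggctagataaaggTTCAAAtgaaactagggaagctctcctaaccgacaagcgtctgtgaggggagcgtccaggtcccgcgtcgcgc
Ube2c (chr2:164769679-164769978, plus strand): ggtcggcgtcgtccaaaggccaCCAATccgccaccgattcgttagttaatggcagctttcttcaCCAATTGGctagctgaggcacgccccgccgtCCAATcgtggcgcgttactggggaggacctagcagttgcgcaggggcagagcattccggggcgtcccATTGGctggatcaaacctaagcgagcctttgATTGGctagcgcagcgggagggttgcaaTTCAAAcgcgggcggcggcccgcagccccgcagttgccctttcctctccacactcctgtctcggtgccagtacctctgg
Cdc6 held the E2F word TTTCCCGC on the opposite strand 138 bases before the start, and no other searched word. Mcm7 held TTTCCCGC on the opposite strand 165 bases before the start and TTTCGCGC at base 17 after it, where its last base is the first of a CCAAT word. Pclaf held 2 CCAAT words and TTTCCCGC on the opposite strand 5 bases before the start. Hist1h1b and Hist1h1e shared 1 layout, with AAACACA 117 and 115 bases, CCAAT 53 and 52 bases and TATAAA 28 and 27 bases before the start, and Hist1h1b also held 2 other CCAAT words and a TTTGAA. Neither window held an E2F word. Top2a and Ube2c held several CCAAT words and a TTTGAA on the opposite strand 23 and 29 bases before the start, and Top2a held 3 other CHR words farther from it. Windows not printed went both ways. Pcna, Rrm2 and Slbp, also lowest in part 3, lacked an E2F word, while Hells held TTTCCCGC. The E2f1 window held none either, but it lies inside the annotated gene, which starts at chr2:154569892 in GENCODE. The bases before that start were therefore not searched for E2f1. Ccnb1 and Cdkn2d, higher in part 3 than in part 1, lacked a CHR word, while Hmmr and Plk1 held TTTGAA. A link between words and parts was not tested.

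Members had less mRNA of several matrix and hypoxia genes. Of 24 counted mesenchymal and matrix genes, 10 were past 1.5-fold lower and 1 higher (median 0.715-fold). The whole list summed to 47494 CPM in members and 52977 CPM in the rest. Mitotic comparison cells were close to the members, at 48025 CPM, against 52848 CPM in the other base cells. Col3a1, a fibrillar collagen, had set values of 566, 826 and 1185 CPM in members and 1494, 2112 and 2350.1 CPM in the rest, and Sparc, a collagen-binding matrix protein, 1403, 1967 and 2395 CPM in members and 2047, 3074 and 3946 CPM in the rest. The sets did not overlap for Col3a1 and overlapped for Sparc. Fn1, fibronectin, was 0.391-fold in members over the rest, and Spp1, osteopontin, was at 845, 3573 and 4428 CPM in members and 1734, 5644 and 9252 CPM in the rest, with overlapping sets. Lgals1, galectin-1, was within 1.5-fold at 4787 CPM in members and 3933 CPM in the rest. Cdh2, N-cadherin, was the gene that was higher, at 47.3 CPM in members and 30.4 CPM in the rest. The summed fibroblast markers were lower in members too, with 9 of 10 markers lower and Cxcl14 the exception, and their part in the lower matrix genes was not tested beyond the values that follow. Among cells with at most 1 of 8 fibroblast genes detected, a limit added after the values were seen, Col3a1 was 0.431-fold and Spp1 0.549-fold in members, against 0.415-fold and 0.545-fold in all base cells.

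The hypoxia and glycolysis list was 0.919-fold in members over the rest as a sum, and 0.844 to 1.19-fold within the sets, so it was not lower in every set. Of its 21 counted genes, 7 were past 1.5-fold lower and none higher. Ero1l, an oxidoreductase of the endoplasmic reticulum, was at 60.5 CPM in members and 148 CPM in the rest, Hk2, hexokinase, at 53.6 CPM in members and 106 CPM in the rest, and Vegfa, the vessel growth factor, at 90.9, 120.03 and 159 CPM in members and 191, 218 and 293 CPM in the rest, with no overlap for Vegfa. The core glycolytic genes Gapdh and Pgam1 were nearly even, at 1485 CPM in members and 1433 CPM in the rest, and at 747 CPM in members and 762 CPM in the rest. Of 17 counted stress response genes of the endoplasmic reticulum, 1 passed the limit: Dnajb9, a chaperone partner, at 36.8 CPM in members and 102 CPM in the rest. Of 18 interferon genes, 6 were past 1.5-fold lower, but their sets overlapped widely, and of 20 alternative settings Ifit1 stayed past the limit in 5, Ifit2 in 9 and Rsad2 in 15. Ifit1, an antiviral RNA-binding protein, ran from 36.8 to 198 CPM over the sets of the members and from 54.97 to 250.1 CPM over the sets of the rest. Of 20 counted genes of ribosome biogenesis and Myc targets, 9 were past 1.5-fold higher, among them Ncl, nucleolin, at 911 CPM in members and 585 CPM in the rest, and Ran, the nuclear transport GTPase, at 1894 CPM in members and 1114 CPM in the rest. None of 83 ribosomal protein genes passed the limit in either direction.

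The 12 largest folds outside the lists included several genes of chromosome segregation. Cenph and Cenpq of the kinetochore were at 80.1 CPM in members and 13.99 CPM in the rest, and at 72.1 CPM in members and 17.1 CPM in the rest, Ncapg2 of condensin II at 111 CPM in members and 19.6 CPM in the rest, and Sgo2a, which guards cohesion at centromeres, at 59.97 CPM in members and 14.4 CPM in the rest. Pbk, a mitotic kinase, was at 155 CPM in members and 28.8 CPM in the rest, Stmn1, a microtubule destabiliser, at 468 CPM in members and 122 CPM in the rest, and Dnajc9, a histone chaperone, at 104 CPM in members and 25.7 CPM in the rest. Fam111a, whose human counterpart is a protease that acts at forks, was at 208 CPM in members and 61.8 CPM in the rest. Slfn9 had 72.6 CPM in members and 17.2 CPM in the rest, and Cep55, Arhgap11a and Syce2 were 3.57-fold, 3.30-fold and 3.29-fold, each higher in members.

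The 12 smallest folds outside the lists were mostly genes of secreted proteins. Serpine2, a protease inhibitor, was at 19.1, 30.98 and 38.1 CPM in members and 96.8, 203 and 287 CPM in the rest, and Slpi, another protease inhibitor, at 61.1 CPM in members and 339 CPM in the rest. Itm2a, a membrane protein, was at 42.6, 110.1 and 140.1 CPM in members and 296, 555 and 687 CPM in the rest. Serpine2 and Itm2a had no overlap between the sets of members and of the rest. Saa3, Ccl8, Aspn, Penk, Dio2, Enpp2, Apod and Fmo1 lay between 0.0854-fold and 0.166-fold in members over the rest. The 20 CPM limit was over the base, where the rest holds most of the UMIs. Genes low in members can pass it through the rest alone, so these smallest folds are a description only. Mitotic comparison cells were low in Serpine2 and Itm2a as well, with 31.3 CPM of Serpine2 and 118 CPM of Itm2a over all 756 of them.

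The share of members in the base differed between barcode sets. It was 12.7% in set 2 (exact binomial 95% interval 10.9 to 14.8%), 11.2% in set 4, 10.3% in set 3 (16 members), 9.10% in set 1, 8.90% in set 5 and 6.12% in set 6 (interval 4.37 to 8.30%). Set 6 was also lowest for mitotic comparison cells, at 5.47%, whereas set 5, below the pooled share for members, was highest for mitotic cells at 11.4%. Intervals cover counting error only, and a set is not known to be a tumor or a treatment. Outside the base, 15.5% of 724 immune-positive cells (12.9 to 18.3%) and 11.8% of 838 epithelial-positive cells (9.71 to 14.2%) reached the members' score limit, so cells that reach the score limit were not confined to the base.

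**Figure D5:**
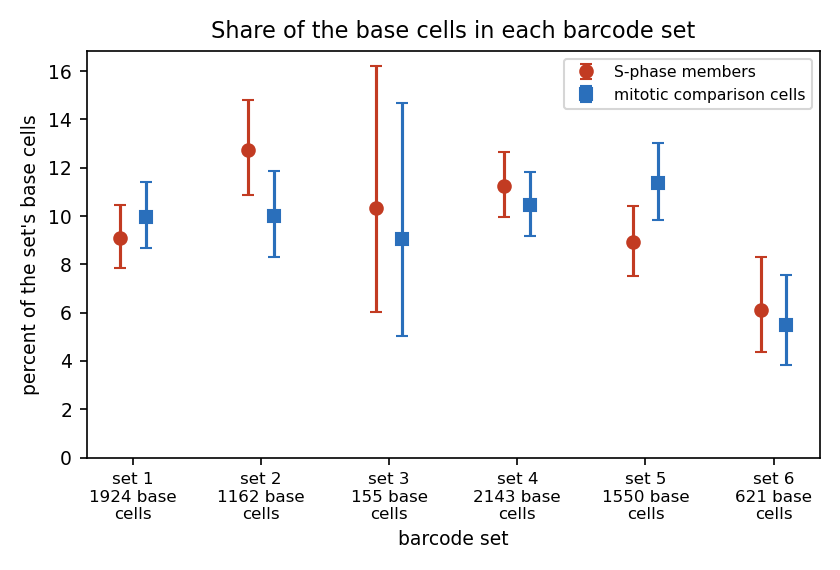
Percent of each barcode set's base cells that were S-phase members (red circles) or mitotic comparison cells (blue squares), with exact binomial 95% intervals (vertical axis, percent; horizontal axis, barcode set with its number of base cells). Members made up 12.7% of set 2, the highest share, and 6.12% of set 6, the lowest. The intervals cover counting error only.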

How the data were processed

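The authors deposited 1 pooled matrix of UMI counts, 32285 genes and 12 multiplexing tags by 14818 barcodes. Cell Ranger 7.1, Seurat and mm10 are named in the submitters' processing notes, and the matrix header, per the file headers, gives format software 7.0.0. Seurat 4.1.0 is named in the series text. Counts were used as deposited.

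Base cells had at least 4000 UMIs, under 15% mitochondrial counts, at most 1 UMI of Ptprc and Tyrobp together, no Pecam1 UMI, at most 1 UMI of Epcam, Krt7 and Cldn7 together, at most 1 of Rgs5, and fewer than 5 of 8 fibroblast genes detected. Each cell was scored by the mean of log(1 + counts per 10000) over 6 genes. Member and rest counts were summed and given as CPM, with exact 95% Poisson intervals and exact conditional intervals for ratios; these cover counting error only. A gene was counted from 20 CPM over the base and called from 1.5-fold. Tests need labelled samples, and none ties cells to tumors, so none was run. Scrublet, run per barcode set in scanpy 1.11.5, marked 21 of 13768 cells, too few for it to have worked, so no doublet was removed. The ratio calculation was tested on simulated data.

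Members and gene lists were chosen with earlier results of these data known. By rule, the genes named were the score genes, up to 4 counted genes a list past 1.5-fold and up to 2 within it with the highest CPM, counted histone genes, and the 12 largest and 12 smallest ratios outside the lists; other genes were named after their values were seen, and a few genes that the rule names are not reported here. Promoter windows were matched by symbol or identifier for 4864 of the 6033 counted genes. Python 3.11.15, numpy 2.4.6, scipy 1.17.1 and matplotlib 3.10.9 were used. Alternatives changed the depth and mitochondrial limits, the top share, the score genes, the CPM limit, the depth of every cell (thinning to 4000 UMIs), the sets and the cells left out.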

Additional observations from a re-analysis of the deposited data

How the results depend on the processing

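No paired analysis was possible because no label ties cells to a tumor and no test was run. Leaving out the score genes and lists that hold them, whose direction the choice fixes, 14 lists and 100 named genes were past 1.5-fold. All kept their direction in the 20 alternatives that gave list and gene ratios (19 for the Y-linked list), and 13 lists and 87 genes stayed past 1.5-fold. Most of these genes were named for their ratio in the same cells, and most alternatives drew on largely the same cells. Kept directions were thus largely set by the choice and are a description only. The mismatch and base excision repair list was at 1.49-fold without barcode set 1. The Y-linked list rests on few counts, at 0.468 CPM in members. Within barcode set 6 it went the other way, at 3.75 CPM in members and 0.514 CPM in the rest. The ratio of G2 and M genes, 2.74-fold, and of S genes outside the score, 3.21-fold, moved with the choice of cells. With at least 6000 UMIs they were 2.58 and 3.11, for the top 5% 2.41 and 2.94, for the top 20% 3.79 and 3.63, for the score from Pclaf, Rrm2 and Fbxo5 2.56 and 3.35, for the 3 histone genes 2.78 and 2.98, thinned to 4000 UMIs 3.27 and 3.53, and without mitotic comparison cells 3.87 and 3.70. The G2 and M ratio was 2.71 for the top 10% within each set and 2.77 as the median over sets. In alternatives chosen after seeing the data it was 2.92 in cells of 12000 to 20000 UMIs, 2.72 in cells with Xist and no Y-linked UMI and 2.69 in cells with at most 1 fibroblast gene, where the S ratio was 3.16. Leaving out a barcode set gave 2.65 to 2.80 for G2 and M genes, 3.13 to 3.28 for S genes, 360 to 393 higher genes and 521 to 574 lower genes. From 5 CPM, 797 genes were higher and 1042 lower. The share of set 2 was 6.37% for the top 5%, 23.1% for the top 20% and 10.1% for the top 10% within each set, and that of set 6 was 3.22%, 13.2% and 10.1%; leaving out another set gave 12.1 to 13.3% for set 2 and 6.12 to 6.60% for set 6. The cause of these moves was not tested. Low counts limit genes below 20 CPM, and set 3 with 16 members limits the range over sets.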

Other observations

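Proteolysis and immediate early genes gave few differences in members. Of 19 counted genes for proteolysis of cell cycle proteins, 2 were past 1.5-fold higher, and the list stood at 1.29-fold as a sum. These were Ube2c, at 331 CPM in members and 148 CPM in the rest, and Dtl, at 60.6 CPM in members and 22.5 CPM in the rest. Dtl encodes the receptor of the ligase that destroys Cdt1 on Pcna. Ube2s, which extends ubiquitin chains for the anaphase-promoting complex, was within 1.5-fold at 461 CPM in members and 309.6 CPM in the rest. Of 19 immediate early genes, 2 were past 1.5-fold lower and none higher, among them Btg2, an antiproliferative gene, at 46.7 CPM in members and 77.3 CPM in the rest. Junb, a subunit of the factor AP-1, was at 1301 CPM in members and 1426 CPM in the rest.

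Cxcl14, a chemokine gene in the fibroblast marker list, was the fibroblast marker that was higher in members, at 7.69 CPM in members and 0.879 CPM in the rest. It came from 12 members, and 105 of its 115 UMIs in members were in 2 cells, with 74 and 31 UMIs. Hmgb2, a chromatin protein, was at 1391 CPM in members that were not mitotic comparison cells, 1884 CPM in cells of both groups, 1237 CPM in mitotic cells that were not members and 239 CPM in the remaining base cells.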
